A study of Rattus norvegicus with 6 samples.

Results

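The E2F transcription factors and the retinoblastoma family were followed after serum withdrawal in cultured rat nucleus pulposus cells, primary cells from the soft centre of the intervertebral disc. The 10 genes were taken by symbol from the deposited tables: the activators E2f1, E2f2 and E2f3, the repressors E2f4, E2f5, E2f7 and E2f8, and the pocket protein genes Rb1, Rbl1 and Rbl2. They are 10 of the 17093 genes listed for each library. Serum-starved cells had been kept in medium lacking fetal bovine serum for 48 h, and control cells in DMEM-F12 with 10% serum, with 3 libraries in each group. All cells came from male rats, from intervertebral disc, at passages 3 to 6. Whether replicate libraries represent different animals or different cultures is not stated in the labels, and the p-values therefore describe the spread between these libraries alone, which may be technical.

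E2F proteins bind promoters of genes needed for DNA synthesis and division, most of them as pairs with a DP protein. Pocket proteins hold E2Fs in check until cyclin-dependent kinases phosphorylate them: pRB, encoded by Rb1, binds mainly the activators, while p107 (Rbl1) and p130 (Rbl2) bind mainly E2F4 and E2F5. In resting cells p130 and E2F4 join the MuvB proteins in the DREAM complex, which keeps cell cycle genes off, whereas E2F7 and E2F8 repress without a DP partner or a pocket protein and are themselves made from E2F-driven genes in cycling cells.

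Serum-starved cells held much less E2f1, E2f7 and E2f8 RNA than control cells, less E2f5 and Rbl1, and more Rbl2, while E2f2, E2f3, E2f4 and Rb1 did not pass the test. Of the 10 members, 1 rose and 5 fell in serum-starved cells with an adjusted p (Benjamini-Hochberg) no higher than 0.05 in limma, a linear model fitted to all tested genes. The background was wide: 61.1% of the 11493 tested genes passed this threshold, 31.7% higher and 29.4% lower in serum-starved cells, so 6 of 10 is a share near that of all genes. The 3 libraries of one group lay wholly apart from the 3 of the other for 6 of the 10 members and for 68.2% of tested genes. The median log2 fold change was -0.41 over the members and 0.03 over all tested genes. These counts and the median include E2f7 and E2f8. Both reached the minimum for testing, 1 or above in 3 or more libraries, only through the control libraries. Values are the deposited ones, treated as FPKM (reads per length of transcript and size of library), and each log2 fold change is the serum-starved mean minus the control mean of log2(value + 1). That scale understates the change of genes with low values. In bulk RNA, fewer cells that carry a transcript and less of it per cell cannot be told apart.

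**Figure D1:**
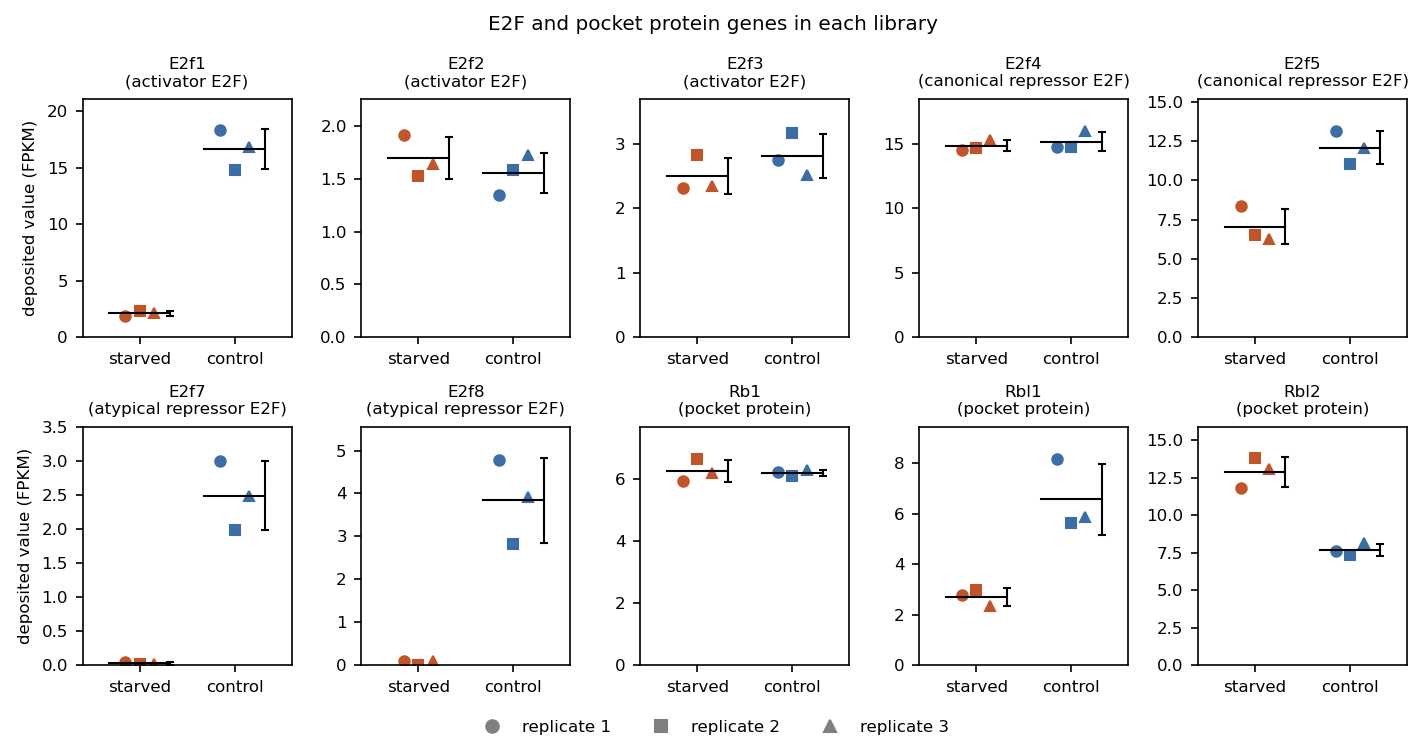
Deposited values (FPKM, vertical axes from 0) of the 10 genes in 3 serum-starved (left, orange) and 3 control (right, blue) libraries; marker shapes give the replicate number, horizontal lines the group mean and error bars the SD (n = 3), with neither drawn for E2f8 in serum-starved cells, where 1 library is listed at 0. E2f1, E2f5, E2f7, E2f8 and Rbl1 lie lower and Rbl2 lies higher in every serum-starved library than in any control library, and the groups overlap for the other 4 genes.

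The listed values summed to 447788 to 473452 in serum-starved and 522165 to 530095 in control libraries, ranges that do not overlap, and between 11153 and 11254 genes per library reached a value of at least 1. Markers of the nucleus pulposus were only partly present. Of 14 such markers, 11 were matched and 8 tested. Of the 8, 7 fell and 1 rose in serum-starved cells, against 29.4% of all tested genes lower and 31.7% higher. The matched markers summed to 202 to 213 in serum-starved and 393 to 424 in control cells. Krt18 was listed at 0 in every library and Col2a1 was at most 0.06, while other markers were present. Acan averaged 3.05 in serum-starved and 77.5 in control cells, Sox9 1.27 and 5.11, and Foxf1 21.8 and 33.3. Krt8 averaged 1.28 in serum-starved and 2.58 in control cells, and Car12 0.05 and 1.76. Car12, counted among the 7 that fell, reached the minimum for testing only through the control libraries, and so had to differ to be tested. Pax1, which rose, averaged 51.2 in serum-starved and 27.5 in control cells. Cd24, below the minimum for testing, was at 0.37 to 0.56 in serum-starved and 0.04 to 0.14 in control cells. Slc2a1 and Hif1a had the highest control means of the list, 142 and 122, against 30.7 and 96.6 in serum-starved cells. Matched markers of annulus fibrosus and tendon, chiefly Col1a1, summed to 2705 to 2798 in serum-starved and 1696 to 2093 in control cells. Of the same list, Mkx rose, with averages of 10.63 in serum-starved and 3.597 in control cells. Scx averaged 37.25 in serum-starved and 42.26 in control cells, with overlapping groups, and did not pass. Leukocyte markers, chiefly Cd68, summed to 2.94 to 4.17 in serum-starved and 1.69 to 2.54 in control cells, endothelial markers to 0.62 to 0.79 in serum-starved and 0.58 to 1.19 in control cells, and skeletal muscle markers, chiefly Acta1, to 1.08 to 1.65 in serum-starved and 0.02 to 0.17 in control cells. Of the same lists, Csf1r was at 0.02 to 0.10 in serum-starved and 0.14 to 0.25 in control cells, and Myh1 was at most 0.03 in every library. The part of these differences in the results was not tested.

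Among the activators, the genes whose products switch on DNA synthesis genes, the change was unequal. E2f1 was at 1.91, 2.36 and 2.10 in serum-starved cells, against 18.31, 14.82 and 16.81 in control cells. Every serum-starved library lay far below the lowest control library. The group means were 2.12 ± 0.226 and 16.6 ± 1.75 (SD, n = 3 each), 7.84-fold lower in serum-starved cells, with a log2 fold change of -2.50 ± 0.0998 (SE) and a limma adjusted p = 3.76e-07. By log2 fold change of value + 1, only 1.33% of all tested genes fell as far or further. That rank depends on the scale. With 0.1 added in place of 1, E2f1 was at -2.91, and E2f7 and E2f8 were lower, at -4.35 and -4.68.

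E2f2, another activator, stood at 1.92, 1.53 and 1.64 in serum-starved cells and at 1.35, 1.58 and 1.73 in control cells. These values overlap, with a log2 fold change of 0.08 and a 95% interval of -0.16 to 0.32, a ratio (of value + 1) between 0.892 and 1.25. E2f3 stood at 2.32, 2.83 and 2.35 in serum-starved cells and at 2.75, 3.17 and 2.51 in control cells. Here too the groups overlap, with a log2 fold change of -0.12 and a 95% interval of -0.36 to 0.12. The interval of E2f1, -2.72 to -2.27, lies clear of both. E2f3 makes a long and a short protein from separate promoters, which a value per gene cannot tell apart.

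If the values are FPKM, a level per length of transcript, the 3 activators can be set side by side. That unit is assumed, and the build listed for these rat libraries is a mouse one. Levels, shares and ratios between genes, here and below, are therefore less certain than differences of 1 gene between groups. E2f1 made up 31.1%, 35.1% and 34.5% of their summed value in serum-starved cells, against 81.7%, 75.7% and 79.9% in control cells. E2f3 had the highest value of the 3 in each serum-starved library, and E2f1 in each control library. The sum of the 3 activators was 6.32 ± 0.348 in serum-starved cells and 21.0 ± 1.42 in control cells (SD, n = 3 each).

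The canonical repressors did not move together either. E2f4, which together with p130 or p107 represses cell cycle genes in resting cells, was at 14.50, 14.66 and 15.32 in serum-starved cells and at 14.75, 14.71 and 16.02 in control cells. The groups overlap and differ by a log2 fold change of -0.03, with a 95% interval of -0.19 to 0.13 that bounds the ratio (of value + 1) to between 0.879 and 1.09. E2f5, its closest relative, was at 8.35, 6.54 and 6.26 in serum-starved cells, against 13.17, 11.05 and 12.06 in control cells. The highest serum-starved value, from replicate 1, stays below every control. E2f5 fell 1.72-fold, with a log2 fold change of -0.71 ± 0.113 (SE) and a limma adjusted p = 0.000813.

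Within the 5 E2F genes that act with DP partners, E2f4 had the highest share in serum-starved cells, at 50.0%, 52.5% and 55.4% of the summed value, against 29.3%, 32.5% and 32.6% in control cells. E2f1 went the other way, with 6.59%, 8.45% and 7.59% in serum-starved cells and 36.4%, 32.7% and 34.2% in control cells. The share of E2f5 was 24.9% ± 3.35 in serum-starved and 25.0% ± 0.988 in control cells, so its fall kept pace with that of the whole sum, 28.2 ± 0.707 against 48.3 ± 2.61 (SD, n = 3 each). The summed canonical repressors exceeded the summed activators 3.72, 3.15 and 3.54 times in serum-starved libraries and 1.25, 1.32 and 1.33 times in control libraries. These ranges do not overlap, and E2f1 is the gene whose values moved most within them. On the log scale, where each gene weighs the same, the mean of the activators minus the mean of the canonical repressors was -1.87 ± 0.109 in serum-starved and -1.39 ± 0.067 in control cells. These shares and balances are descriptions, with no test.

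**Figure D2:**
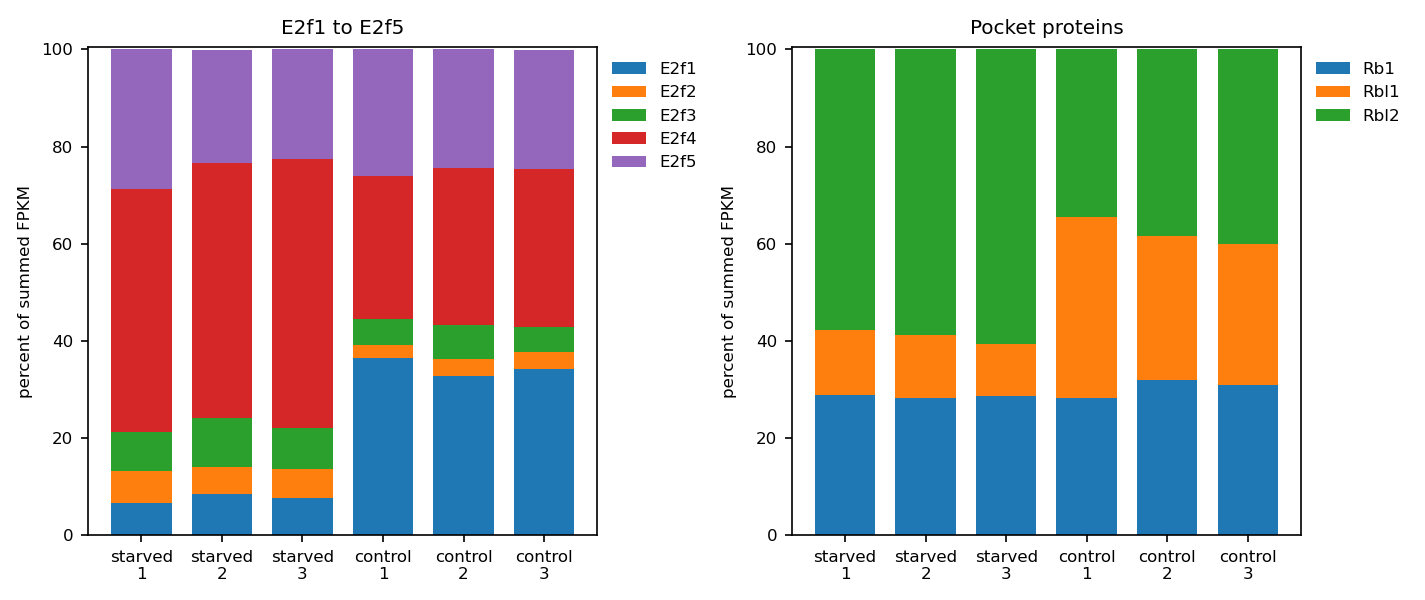
Share of each gene (percent of summed FPKM, vertical axes from 0 to 100) among E2f1 to E2f5 (left) and among the pocket protein genes (right), with 1 bar for each of the 3 serum-starved and 3 control libraries. E2f1 takes 6.59% to 8.45% of its bar in serum-starved and 32.7% to 36.4% in control libraries, and Rbl1 takes 10.7% to 13.5% in serum-starved and 29.0% to 37.2% in control libraries.

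The atypical repressors E2f7 and E2f8, which dampen E2F target genes late in the cycle, were almost gone from serum-starved cells. E2f7 was at 0.05, 0.01 and 0.02 there, against 3.00, 1.98 and 2.48 in control cells. E2f8 was at 0.08, 0 and 0.09 in serum-starved cells, against 4.79, 2.81 and 3.92 in control cells. No serum-starved library held more than 0.09 of either gene. With values so near the rounding step of 0.01, no ratio is given. The log2 fold changes were -1.75 ± 0.127 (SE) for E2f7 and -2.18 ± 0.154 for E2f8, with limma adjusted p = 1.02e-05 and 8.86e-06. With a pseudocount of 0.1 in place of 1 they were -4.35 and -4.68. Both genes reached the minimum for testing, 3 or more libraries at 1 or above, only through the control libraries, and so had to differ to be tested. They were not tested when any 1 control library was left out, and were called when no minimum was set.

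Ordered by mean level, serum-starved cells ran E2f4, Rbl2, E2f5, Rb1, Rbl1, E2f3, E2f1, E2f2, E2f8 and E2f7, and control cells E2f1, E2f4, E2f5, Rbl2, Rbl1, Rb1, E2f8, E2f3, E2f7 and E2f2. The ranges of neighbours in this order overlapped in serum-starved cells for E2f5 and Rb1, Rbl1 and E2f3, E2f3 and E2f1, E2f1 and E2f2, and E2f8 and E2f7. In control cells they overlapped for E2f1 and E2f4, Rbl2 and Rbl1, Rbl1 and Rb1, E2f8 and E2f3, and E2f3 and E2f7. Against all tested genes, E2f1 stood at percentile 10.7 by level in serum-starved cells and at 60.5 in control cells, Rbl2 at 53.5 in serum-starved and 38.0 in control cells, and E2f4 at 57.9 in both.

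The 3 pocket protein genes took 3 different courses. Rb1 was at 5.91, 6.63 and 6.18 in serum-starved cells and at 6.21, 6.09 and 6.27 in control cells. The groups overlap, and the log2 fold change of 0.01 has a 95% interval of -0.17 to 0.18. Rbl1, whose p107 protein is abundant in cycling cells, was at 2.77, 2.99 and 2.32 in serum-starved cells, against 8.18, 5.63 and 5.89 in control cells. Control replicate 1 stands above the other controls, and no serum-starved library comes near them. Rbl1 fell 2.44-fold, with a log2 fold change of -1.02 ± 0.138 (SE) and a limma adjusted p = 0.000333. Rbl2, whose p130 protein is the main pocket protein of resting cells, was at 11.83, 13.80 and 13.12 in serum-starved cells, against 7.58, 7.34 and 8.15 in control cells. All serum-starved values exceed all control values. Rbl2 rose 1.68-fold, with a log2 fold change of 0.68 ± 0.082 (SE) and a limma adjusted p = 0.000177.

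Their sums overlapped between groups, at 21.8 ± 1.47 in serum-starved and 20.4 ± 1.46 in control cells (SD, n = 3 each), as did the shares of Rb1, while those of Rbl1 and Rbl2 did not. Rbl2 took 57.7%, 58.9% and 60.7% of it in serum-starved libraries and 34.5%, 38.5% and 40.1% in control libraries. The ratio of Rbl2 to Rbl1 was 4.27, 4.62 and 5.66 in serum-starved libraries and 0.927, 1.30 and 1.38 in control libraries. In control replicate 1 alone Rbl1 exceeded Rbl2. Rb1 had a share of 28.6% ± 0.253 in serum-starved and 30.4% ± 1.89 in control cells.

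**Figure D3:**
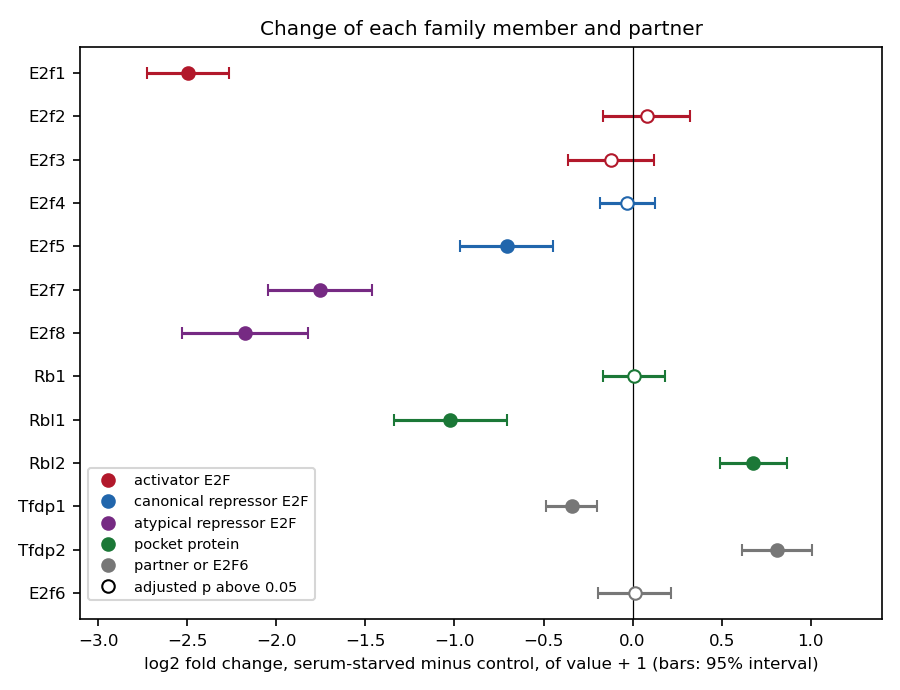
Log2 fold change (serum-starved minus control, on value + 1, horizontal axis) with its 95% interval for the 10 genes, the DP partner genes Tfdp1 and Tfdp2, and E2f6; colours give the class, and open circles mark an adjusted p above 0.05. E2f1 lies farthest to the left at -2.50, Rbl2 and Tfdp2 lie to the right at 0.68 and 0.81, and the intervals of E2f2, E2f3, E2f4, Rb1 and E2f6 cross 0.

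Promoter sequences, from RefSeq on the GRCr8 rat assembly, were matched for 5 of the 10 members, E2f3, E2f7, Rb1, Rbl1 and Rbl2. They are shown because Rbl1 and Rbl2 moved in opposite directions, and the E2F family binds promoters of its own members. The window ran from 250 bases before the annotated start to 50 bases after it, and was searched on both strands for TTTCCCGC, TTTCGCGC, TTTGCCGC and TTTGGCGC, the spelled-out forms of the classical E2F motif. Capitals mark a match. Each line gives the gene and the strand read in the direction of transcription, for the last 100 bases before the start, or for Rb1 the 26 bases around a match that begins at position 3 of the transcript. In the order of the lines these are chr3:166289377-166289476 (minus strand), chr19:32096412-32096511 (minus strand), chr7:48036803-48036902 (plus strand), chr17:34810316-34810415 (plus strand) and chr15:54911839-54911864 (minus strand).
Rbl1: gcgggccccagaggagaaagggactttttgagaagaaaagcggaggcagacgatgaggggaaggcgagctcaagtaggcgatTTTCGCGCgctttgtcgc
Rbl2: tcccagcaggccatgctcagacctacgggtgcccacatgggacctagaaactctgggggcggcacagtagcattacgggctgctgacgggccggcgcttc
E2f7: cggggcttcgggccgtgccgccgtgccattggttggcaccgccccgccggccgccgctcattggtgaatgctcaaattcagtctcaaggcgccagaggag
E2f3: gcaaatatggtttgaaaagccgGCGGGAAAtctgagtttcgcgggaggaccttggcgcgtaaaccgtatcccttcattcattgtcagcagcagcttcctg
Rb1: aagtgacgtTTTCCCGCggttggccc

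Rbl1, which fell, held the motif from position -18 to -11 before its start, and Rbl2, which rose, held none in the window. E2f3 and Rb1, whose groups overlap, held 1 match each, and E2f7, which fell, held none. Presence of a match therefore did not sort these 5 genes by their change. A match was found in 2.25% of the 27457 promoters in the table (1 per gene ID), in 4.33% of 9167 promoters of tested genes, and in 13 of 23 promoters of the textbook target genes of the start of S phase described next. The share was 5.53% for tested genes that fell and 3.45% for those that rose. Of 21 promoters of the mitotic genes assigned to MuvB complexes, also described below, 1 held a match. A match is only a run of letters, and its absence says nothing of the factor.

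Partners of the E2Fs changed in opposite directions. Tfdp1, the more abundant gene for a DP partner, was at 24.96, 27.12 and 25.25 in serum-starved cells, against 33.66, 33.05 and 32.05 in control cells. Tfdp2, for another DP partner, was at 4.69, 4.43 and 4.51 in serum-starved cells, against 2.33, 2.0 and 2.16 in control cells. Neither pair of groups overlaps. Tfdp1 fell (log2 fold change -0.34 ± 0.063 SE, limma adjusted p = 0.00177) and Tfdp2 rose (0.81 ± 0.085, limma adjusted p = 8.31e-05). The call for Tfdp1 was lost when each library was scaled to the same sum (log2 fold change -0.16, limma adjusted p = 0.0791), a scaling that moves the median of all genes to 0.22. E2f6, a repressor that works without pocket proteins, was at 17.77, 18.41 and 15.14 in serum-starved and 16.84, 15.90 and 18.04 in control cells, with overlapping groups and a 95% interval of -0.19 to 0.22.

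Of the 9 genes of the MuvB core and its partners, 7 fell, 0 rose and 2 did not pass the test. Across all tested genes, 29.4% were called lower and 31.7% higher. The median log2 fold change of the 9 was -0.55, against 0.03 over all tested genes. Mybl2, whose B-MYB protein joins MuvB to activate mitotic genes, was at 0.13, 0.14 and 0.20 in serum-starved cells, against 14.51, 9.78 and 13.05 in control cells (log2 fold change -3.52 ± 0.136 SE). Foxm1, the forkhead factor that follows B-MYB at the same genes, averaged 1.78 ± 0.104 in serum-starved and 13.3 ± 2.27 in control cells. The core subunit gene Lin9 averaged 1.38 ± 0.108 in serum-starved and 4.49 ± 0.309 in control cells, and Mybl1, a relative of Mybl2, 6.98 ± 0.282 in serum-starved and 15.9 ± 4.42 in control cells (SD, n = 3 each). The call for Lin37, another core subunit gene, rested on a limma adjusted p = 0.0489 and was lost under 7 alternatives, among them leaving out replicate 2 or 3 of the serum-starved group, and replicate 1 or 2 of the controls. Lin52 and Dyrk1a, the kinase gene whose product phosphorylates LIN52 in human cells, did not pass (log2 fold changes -0.03 and -0.15), though Dyrk1a was called lower under 3 alternatives.

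Upstream, 7 of the 8 genes for cyclins and kinases that phosphorylate pocket proteins fell and 1 rose. Across all tested genes, 29.4% were called lower and 31.7% higher. Ccnd1, the D-type cyclin gene that responds to growth factors, was at 57.16, 45.76 and 34.65 in serum-starved cells, against 419.58, 385.95 and 329.39 in control cells, 8.25-fold lower by group means. Ccne1 and Ccne2, the E-type cyclin genes and E2F targets themselves, had log2 fold changes of -1.80 ± 0.151 and -1.62 ± 0.137 (SE), and Cdk6 one of -1.24 ± 0.134. Ccnd3 fell by less (-0.56), and the call for Cdk4 was lost with each library scaled to the same sum (limma adjusted p = 0.0594). Ccnd2 rose (0.44, limma adjusted p = 0.0236), a call lost without serum-starved replicate 2 (adjusted p = 0.081) or control replicate 3 (adjusted p = 0.0625), with no minimum value (adjusted p = 0.0513) and with library quality weights (adjusted p = 0.0648). For CDK inhibitors, 5 genes were tested, of which 1 rose and 2 fell, a share near the 61.1% of all tested genes. With each library scaled to the same sum, 4 rose and 2 fell of 6 tested. Cdkn1b, for p27, averaged 51.8 ± 4.33 in serum-starved and 28.0 ± 2.41 in control cells, while Cdkn2c averaged 10.0 ± 0.645 in serum-starved and 24.7 ± 1.45 in control cells, and Cdkn2a 24.4 ± 4.73 in serum-starved and 41.9 ± 4.27 in control cells (SD, n = 3 each). Cdkn1a and Cdkn2b did not pass (log2 fold changes 0.19 and 0.44), but both were called higher with each library scaled to the same sum. Cdkn1a was also called higher without serum-starved replicate 1 (limma adjusted p = 0.0335), with quantile normalization (0.0263) and with library quality weights (0.0368). Cdkn1c was below the minimum for testing, at 0.75 to 0.97 in serum-starved and 0.30 to 0.79 in control cells.

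Of 12 genes for corepressors that bind pocket proteins, 4 rose, 6 fell and 2 did not pass, against 31.7% of all tested genes higher and 29.4% lower. Ezh2, the catalytic subunit of Polycomb complex 2, averaged 3.82 ± 0.186 in serum-starved and 17.9 ± 2.30 in control cells, and the histone methyltransferase gene Suv39h1 3.25 ± 0.212 in serum-starved and 11.0 ± 1.21 in control cells. Smarca2, a chromatin remodelling ATPase gene, averaged 19.5 ± 1.44 in serum-starved and 11.5 ± 0.415 in control cells, and the corepressor gene Arid4a 5.32 ± 0.433 in serum-starved and 3.06 ± 0.176 in control cells (SD, n = 3 each). With each library scaled to the same sum, 5 of the 12 rose and 3 fell. The call for Sin3b, which fell, was lost under 5 alternatives. The 3 genes for E2F turnover fell: Ccnf, whose cyclin F marks activator E2Fs for destruction in human cells, was at 0.97, 0.73 and 0.78 in serum-starved cells, against 15.91, 12.02 and 15.13 in control cells. Fzr1 and Skp2 had log2 fold changes of -0.83 and -0.46.

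Target genes of the family were lower as a group. All 29 listed E2F target genes of the start of S phase fell, against 29.4% of all tested genes called lower. This list, like the others, was chosen with earlier results of these data known. Log2 fold changes of the 29 genes lay between -6.47 and -0.45, with a median of -1.89, against 0.03 over all tested genes. Rrm2, for a subunit of ribonucleotide reductase, had the lowest at -6.47 ± 0.147 (SE), followed by Tk1 (thymidine kinase, -3.99 ± 0.108), the helicase subunit gene Mcm5 (-3.44 ± 0.147) and Uhrf1 (-3.24 ± 0.104). Cdc25a, a phosphatase gene that activates CDK2, changed least, at 4.21, 4.49 and 3.58 in serum-starved cells, against 6.56, 5.76 and 5.57 in control cells. The 25 mitotic genes assigned to MuvB complexes fell as well, with a median of -3.76, led by Ube2c (-5.08), Top2a (-4.72), Kif20a (-4.65) and Ccna2 (-4.65), and with Cdk1 at the other end (-1.25). Like E2f7 and E2f8, 9 of the S-phase targets and 6 of the mitotic genes were tested only through the control libraries and were not tested when any 1 of these was left out, as were Mybl2 and Ccnf. Apoptosis genes described as E2F1 targets behaved otherwise: of 7 tested, 1 rose and 2 fell while 4 missed the threshold, and the median was 0.08. Bbc3, for PUMA, fell (-0.68 ± 0.151 SE), as did Casp8 (-0.25 ± 0.080), and Apaf1 rose (0.28 ± 0.077). The calls for Casp8 and Apaf1 were each lost without serum-starved replicate 3 or control replicate 2, that for Casp8 also without serum-starved replicate 2 or control replicate 1 and with each library scaled to the same sum (log2 fold change -0.08, limma adjusted p = 0.42), and Tp73 was listed at 0 in every library.

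**Figure D4:**
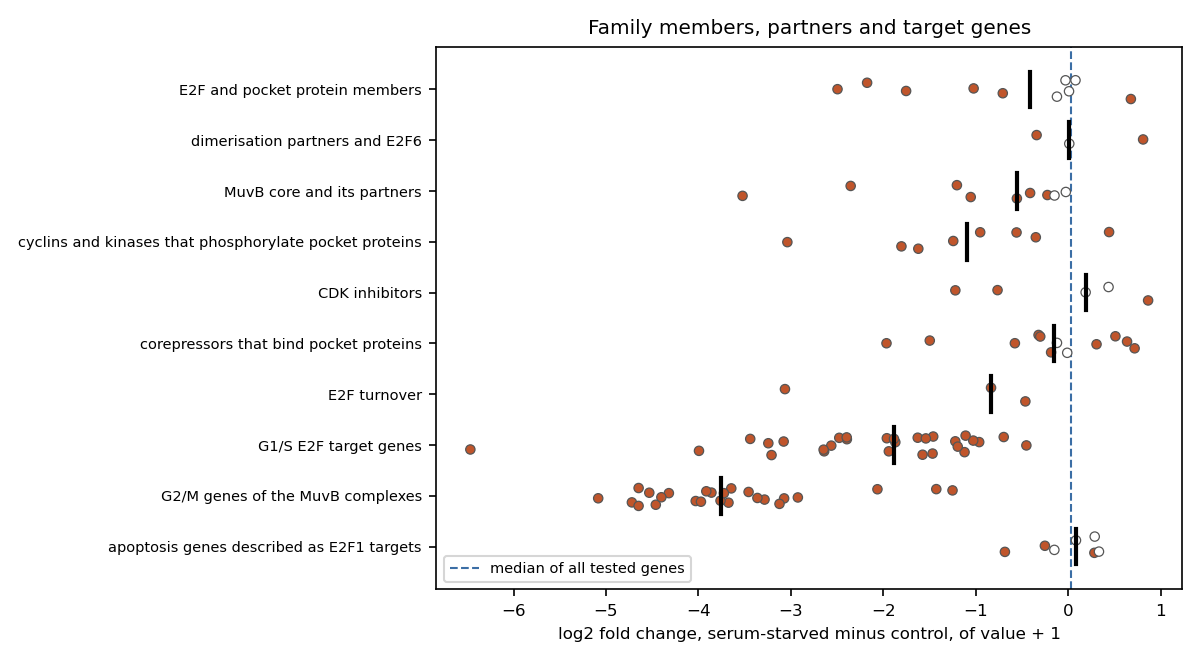
Log2 fold change (serum-starved minus control, on value + 1, horizontal axis) of each tested gene in the E2F and pocket protein family and in each list of partners, regulators and targets, with filled points for an adjusted p of at most 0.05, black bars for the median of a list and a dashed line for the median of all tested genes, 0.03. Medians are -1.89 for the 29 S-phase targets and -3.76 for the 25 mitotic genes, against -0.41 for the 10 family members.

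The members that fell also varied together among the control libraries. E2f1, E2f5, E2f7, E2f8 and Rbl1 each had their highest control value in replicate 1 and their lowest in replicate 2. Replicate 1 exceeded replicate 2 by a factor of 1.70 for E2f8, 1.52 for E2f7, 1.45 for Rbl1, 1.24 for E2f1 and 1.19 for E2f5. For E2f2, E2f3, E2f4, Rb1 and Rbl2 that factor was 0.854, 0.868, 1.00, 1.02 and 1.03. Of the 29 S-phase targets, 27 were highest in control replicate 1 and 23 lowest in control replicate 2, with a median factor of 1.29. Of the 25 mitotic genes, 17 were highest in control replicate 1 and 23 lowest in control replicate 2, with a median factor of 1.26. Among all 3384 tested genes that fell, 46.9% were highest in control replicate 1 and 35.3% lowest in control replicate 2, with a median factor of 1.03. These counts describe 2 libraries and carry no test.

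The closest profiles over the 6 libraries, by the root mean square difference of log2(value + 1) after centring each gene on its mean, were Dtl (0.068), Kif14 (0.090) and Cdt1 (0.097) for E2f1, and Recql4 (0.061), Cdca7 (0.091) and Stil (0.095) for E2f8. For E2f7 they were Vcan (0.032), Smc2 (0.044) and Brip1 (0.051), for E2f5 Suv39h2 (0.045), Nup85 (0.053) and Ptafr (0.053), and for Rbl1 Chst15 (0.069), Psip1 (0.071) and Orc1 (0.080). For Rbl2 they were Pias3 (0.021), Atg13 (0.034) and Wdr19 (0.036). E2f2 lay closest to Dtd1 (0.033), Spsb1 (0.033) and Ccnt1 (0.034), and E2f3 to Pdhx (0.024), Zfp706 (0.028) and Cox18 (0.044). E2f4 lay closest to Tmem98 (0.018), Ints9 (0.019) and Vps52 (0.019), and Rb1 to Ap2a2 (0.013), Rfxank (0.020) and Inppl1 (0.021). Such a measure, over 6 libraries in 2 groups, mostly reflects the size of the difference between groups.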

How the data were processed

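Ribosomal RNA was captured and removed before random-primed reverse transcription, per the labels' protocols. The authors deposited 1 value per gene and library, rounded to 2 decimals, with no unit in the file headers; values are treated as FPKM because the deposited columns are not whole and differ in total, and TPM over a wider set of genes cannot be told apart. The tools listed are HISAT2, StringTie, bcl2fastq 2.0, limma and DESeq2, and the build mm10, a mouse build, per the submitters' processing notes, although gene IDs are rat IDs (15927, or 93.2%, matched RefSeq for GRCr8). Strand and multi-mapping rules are not given in the sources used here, and the depth of sequencing is unknown, so no counting intervals are printed. Here, log2(value + 1) was compared with limma 3.58.1 (R 4.3.3; intensity trend, treatment as the only term, 4 residual degrees of freedom) for genes at 1 or above in 3 or more libraries, with Benjamini-Hochberg adjustment over 11493 genes. An exact two-sided permutation test of 3 against 3 libraries cannot go below 0.1, and was not used. The fit was checked on simulated data. There, far fewer genes changed than were called here, and none with a low mean value. The check therefore does not cover so wide a change or genes with low values. Tables and plots used Python 3.11.15, pandas 2.3.3, numpy 2.4.6 and matplotlib 3.10.9. Members and gene lists were chosen with earlier results of these data known, so list counts are descriptions. All 10 members are named; in each list up to 4 called genes with the largest change, and any E2F, DP, D- or E-type cyclin or CDK inhibitor gene; other list genes named at an end of a range or for an unstable call were chosen after their values were seen.
Likeness names the 3 closest genes of each member. The order of control libraries was described after the values were seen. Promoters came from RefSeq (GRCr8), 1 per gene ID, the first listed; they were not used in any test. Alternatives were another pseudocount, other minimum values, sum, median-ratio and quantile scaling, library quality weights, the replicate block, and leaving out each library.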

Additional observations from a re-analysis of the deposited data

How the results depend on the processing

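The 6 member calls kept their direction and their side of the threshold under every alternative that tested the gene, and E2f2, E2f3, E2f4 and Rb1 passed under none. Log2 fold changes ranged from -2.91 to -2.42 for E2f1, -0.82 to -0.56 for E2f5, -4.35 to -1.65 for E2f7, -4.68 to -1.99 for E2f8, -1.24 to -0.88 for Rbl1 and 0.63 to 0.90 for Rbl2. With a minimum of 5, or without any 1 control library, E2f7 and E2f8 were not tested and 4 members were called. At a minimum of 5, E2f1 and Rbl1 were tested only through the control libraries, and so had to differ to be tested. The same held for E2f7 and E2f8 at a minimum of 1. With each library scaled to the same sum, 5579 genes were called higher instead of 3640, or 69.8% of calls instead of 51.8%, and the median of all genes was 0.22. Relative to that median, Rbl2 (0.90) still lay above it and E2f5 (-0.56) below it. With a pseudocount of 0.1, the difference between groups in the activator minus canonical repressor balance was -0.58 instead of -0.48, and in the Rbl1 minus Rbl2 balance -1.98 instead of -1.70. Leaving out 1 library at a time gave 5899 to 6683 called genes, against 7024. Same-numbered libraries did not deviate together from their group means (r = 0.037, -0.162 and 0.101 over tested genes), and not every library correlated best with its own number. With the replicate block 6801 genes and the same number of members, 6, were called, and Cdkn2b passed (limma adjusted p = 0.0344, against 0.114). Values near 0.01, the rounding step, limit what can be said of E2f7 and E2f8 in serum-starved cells.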
